A study of Mus musculus with 9 samples.

Results

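The basal transcriptome of mouse articular chondrocytes is described here from the 3 Control cultures among the 9 cultures of the series, and genes were ranked by their mean expression over these 3 cultures. The cells came from knee cartilage (femoral condyles and tibial plateaus) of wild-type pups at postnatal day 5, and were grown as a primary monolayer in medium with serum. They were then exposed to a control adenovirus (Ad-Control) at a multiplicity of infection of 400 for 2 h, per the labels, after 3 days of culture, and kept for 36 h. The remaining 6 cultures received an adenovirus carrying the osteoclast-associated receptor OSCAR, with or without 5-ASA, and were not used. According to the study's methods every plate was coated with COLpep, a collagen peptide bound by OSCAR, and no IL-1β was added. The methods give another multiplicity and other times than the labels, and name ICR or C57BL/6 J pups for primary chondrocytes, while the study's reporting summary names ICR pups of both sexes. No untreated, uninfected or uncoated cells are among the 3 cultures, and no effect of the virus, the coating or the culture can be read from them. Expression is given as TPM, in which counts are scaled to transcript length and to the total of the library, as mean ± SD of 3 cultures. The labels do not say whether the cultures came from separate litters, so the spread may be technical.

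Articular cartilage is made by one cell type. Chondrocytes surround themselves with fibrils of type II, IX and XI collagen and with aggrecan, a proteoglycan that holds water, under control of the transcription factor SOX9. Cells of the superficial zone secrete the lubricant PRG4, cells that become hypertrophic make type X collagen, and cells that dedifferentiate in monolayer exchange type II for type I collagen. Inflamed chondrocytes secrete acute-phase proteins, chemokines and the matrix-degrading enzymes MMP3 and MMP13.

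The libraries held 22276105, 25235536 and 19733448 estimated counts. Between 13534 and 13548 genes reached 1 TPM in a culture, and 12878 did so in all cultures, of which 11766 code for proteins. The correlation of log2 TPM across 13565 genes, which are not independent replicates, lay between 0.978 and 0.980 for the 3 pairs of cultures. Counts differed between cultures by more than sampling noise, with a chi-square per degree of freedom of 4.69 to 5.39. The spread between cultures beyond counting error, estimated with edgeR as the biological coefficient of variation, was 4.86%.

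The label of the cells was checked against 7 genes. *Col2a1* (chr15:97975602-98004695, minus strand), which encodes the chain of type II collagen, stood at rank 3 of all genes with 13093, 11514 and 11607 TPM. *Comp*, a matrix glycoprotein of cartilage, reached 849 ± 77.0 TPM and *Acan*, the core protein of aggrecan, 609 ± 40.4 TPM. *Sox9* reached 132 ± 11.2 TPM, with 141, 120 and 136 TPM in the single cultures. Thus the main genes of the chondrocyte were high in every culture. *Prg4*, the lubricant of the surface, was at 149 ± 7.92 TPM. *Col10a1*, the marker of hypertrophy, was at 16.8 ± 0.481 TPM, far below the others. *Col1a1*, the collagen of fibroblasts and bone, was nevertheless at rank 37 with 2799, 2564 and 2822 TPM. The cells therefore carried the cartilage genes and, in addition, a high level of a fibroblast-type collagen.

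The single most abundant transcript was not a matrix gene but *Saa3*, which encodes an acute-phase serum amyloid A protein. It was at 32098, 31153 and 32169 TPM, or 3.18 ± 0.0567% of all TPM, and its values did not overlap those of any other gene. The ratio of *Saa3* to *Col2a1* was 2.64 ± 0.169. *Saa3* is 559 bases long and *Col2a1* 4804, and TPM raises short transcripts by more than the listed length alone. *Lcn2*, the iron-sequestering lipocalin of acute inflammation, was at rank 7 with 8726 ± 226 TPM. Among matrix genes, *Fn1* (fibronectin) was at rank 9 with 8281 ± 138 TPM, *Sparc* (a collagen-binding glycoprotein) at rank 17 with 4883 ± 89.8 TPM and *Thbs1* (thrombospondin) at rank 19 with 4587 ± 94.8 TPM. Iron storage was represented by both ferritin chains, *Fth1* at 7878 ± 585 TPM and *Ftl1* at 3422 ± 23.2 TPM. The translation factor gene *Eef1a1* reached 9543 ± 375 TPM, and the ribosomal *Rplp1* and *Rpl41* 5136 and 3876 TPM. The glycolytic genes *Gapdh*, *Ldha* and *Pkm* were at 5466, 3900 and 3210 TPM. Also within the 30 highest genes were *Vim* (vimentin, an intermediate filament), *Tpt1*, *S100a6* and *Ppia*, at 2966 to 3774 TPM.

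3 of these 30 genes are imprinted, that is, expressed from one parental copy. They were the growth factor gene *Igf2* (5585 ± 456 TPM, rank 12), the neighbouring non-coding *H19* (5514 ± 238 TPM, rank 13) and *Mest* (3207 ± 44.9 TPM, rank 28). *Igf2* and *H19* overlapped in their values, with *Igf2* at 5890, 5061 and 5804 TPM and *H19* at 5785, 5339 and 5419 TPM. Neighbours in the order of the 30 genes often could not be separated, since only 11 of 29 neighbouring pairs had values that did not overlap. *Saa3*, *mt-Atp8*, *Col2a1* and *Gm28661* were each separated from the next.

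**Figure D1:**
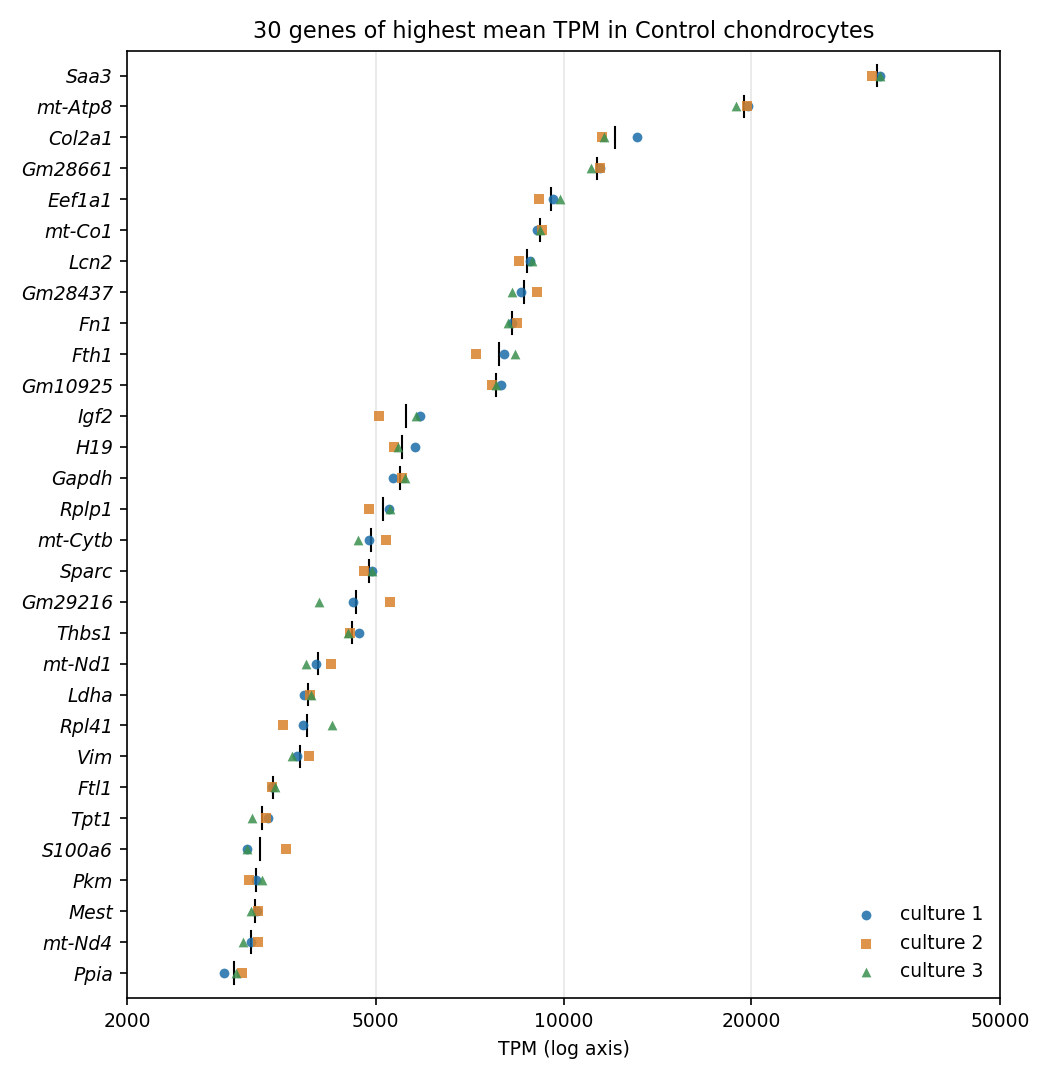
TPM (log axis) of the 30 genes of highest mean TPM, with 1 symbol per Control culture and a black tick at the mean. *Saa3* lies apart at the top, and most neighbours below the first few overlap.

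TPM was spread over many genes. The 10 highest genes of each culture held 12.7 ± 0.155% of it, the 100 highest 35.4 ± 0.176%, the 1000 highest 67.7 ± 0.0820%, and 263 ± 2.65 genes held 50%. A mean of at least 1000 TPM was reached by 152 genes and one of at least 100 TPM by 1441. By functional class, the 85 cytosolic ribosomal protein genes had the largest share of the lists examined, at 11.7 ± 0.0577%. The 155 core matrix genes (collagens, proteoglycans and matrix glycoproteins) held 6.65 ± 0.159%, and 31 cytoskeletal genes 3.02 ± 0.0405%. Glycolysis held 2.28 ± 0.0345% with 17 genes. TPM divides by transcript length. By estimated counts, which do not, core matrix genes held 15.6% and ribosomal protein genes 3.44%, so the order of these classes is reversed between both units.

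**Figure D2:**
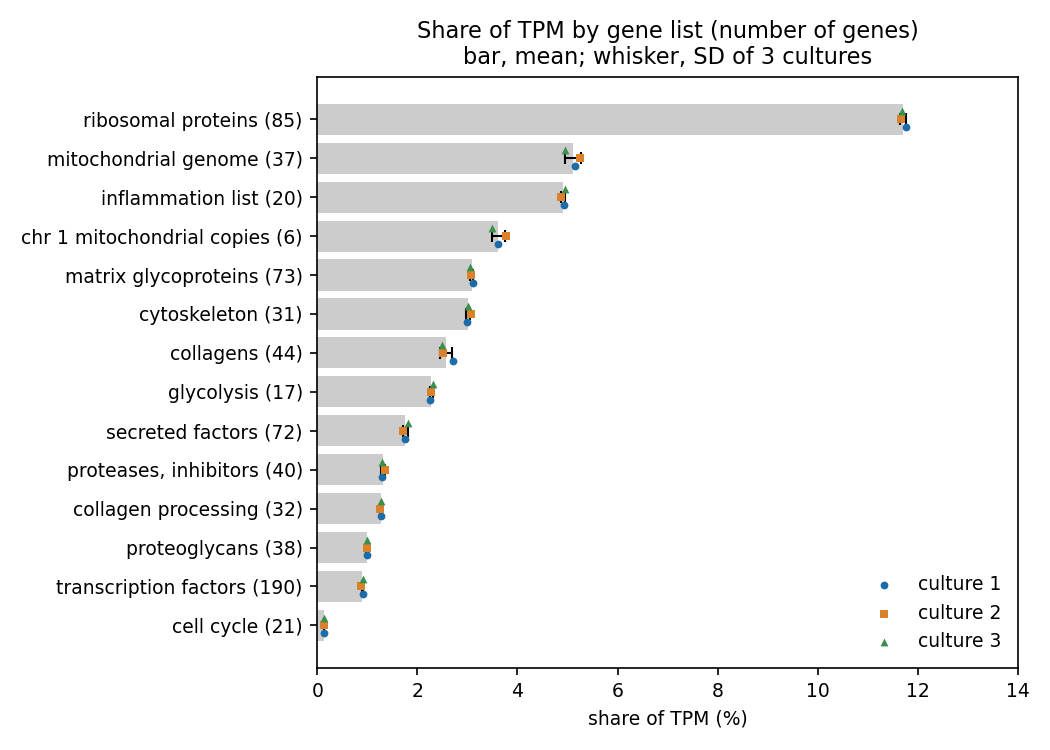
Share of TPM (%) held by each gene list, with the number of genes in parentheses, the mean as a bar, the SD as a whisker and each Control culture as a symbol. Ribosomal proteins have the longest bar, at 11.7%, and some genes are in more than 1 list, such as *Spp1*.

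The 37 genes of the mitochondrial genome held 5.12 ± 0.157% of TPM (1.87% of estimated counts), of which *mt-Atp8*, a subunit gene of ATP synthase, made up 38.0%. Its 19745, 19644 and 18918 TPM came from only 8906, 10543 and 7427 counts on 204 bases, while *Col2a1* had 779568, 778281 and 620553 counts. This TPM is more than counts over the listed length would give. In culture 1, *mt-Nd6* had 11796 counts on 519 bases and was at 2817 TPM. The rank and share of *mt-Atp8* are therefore uncertain. Furthermore, 6 pseudogenes that lie side by side on the minus strand of chromosome 1 (chr1:24612407-24616197) are copies of mitochondrial genes and held 3.62 ± 0.139%. *Gm28661* (11332 TPM), *Gm28437* (8627 TPM) and *Gm10925* (7807 TPM) shared 100% of their 31-base words with mitochondrial transcripts, those of *mt-Co2*, *mt-Co3* and *mt-Atp6*. The remaining *Gm29216*, *Gm10222* and *Gm28438* shared 97.2% or more. *mt-Co2* itself was listed at 197 TPM. Reads of such pairs cannot be told apart, so the level of each copy is uncertain. All 43 genes together held 8.74 ± 0.294%. *mt-Atp8* also shares 21.1% of its exon bases with *mt-Atp6*.

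Collagens held 2.58 ± 0.12% of TPM, or 7.25% of estimated counts, and 30 of 44 collagen genes reached 1 TPM in every culture. Within collagen TPM, the chains of types II, IX, XI and XXVII that build or decorate the cartilage fibril made up 55.9 ± 1.43%, and type II alone 46.8 ± 1.31%. Types I, III and V made up 32.9 ± 1.02%, and type VI, which forms microfibrils around the cell, 7.37 ± 0.222%. Type XII, which lies on fibril surfaces, made up 2.47 ± 0.167% and type X 0.0654 ± 0.00451%. After *Col2a1* and *Col1a1* followed *Col3a1* (2015 ± 166 TPM), *Col1a2* (1602 ± 40.5 TPM), *Col5a2* (1488 ± 84.2 TPM), *Col11a1* (1193 ± 81.0 TPM), *Col6a1* (884 ± 28.4 TPM), *Col12a1* (634 ± 18 TPM) and *Col5a1* (623 ± 24.1 TPM).

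The TPM ratio of *Col1a1* to *Col2a1* was 0.214, 0.223 and 0.243, with a mean of 0.227 ± 0.0151. Since the samples are bulk RNA, a level set by the number of cells of a type and one set by the RNA per cell cannot be told apart, for this and every other gene. *Col1a1* exceeded *Col1a2* 1.70 ± 0.0605 times, the genes of both chains of type I collagen. The subunit genes of type IX collagen were unequal too, with *Col9a1* at 4.37 ± 0.346 times *Col9a2*, while *Col9a2* and *Col9a3* were at a ratio of 0.996 ± 0.0886. *Col11a1* was 4.64 ± 0.231 times as high as *Col11a2*.

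Collagen-modifying genes were all expressed, with 32 of 32 at 1 TPM or more. The cross-linking enzyme gene *Lox* was at 2361 ± 25.4 TPM, the collagen chaperone gene *Serpinh1* at 2039 ± 96.0 TPM and *P4hb*, a subunit of prolyl hydroxylase, at 1691 ± 6.21 TPM. *Pcolce*, *Ppib*, *P4ha2*, *Fkbp10* and *Plod2* followed, from 983 down to 452 TPM. The median CV of these genes was 3.18%, beside 3.92% for all genes of 100 to 1000 TPM.

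Among 38 proteoglycan genes the small leucine-rich ones were highest, namely *Dcn* (decorin, 1745 ± 59.9 TPM), *Bgn* (biglycan, 1387 ± 38.3 TPM), *Fmod* (fibromodulin, 1091 ± 47.3 TPM), *Lum* (lumican, 929 ± 26.9 TPM) and *Prelp* (731 ± 12 TPM). The basement membrane proteoglycan *Hspg2* (perlecan, 656 ± 36.0 TPM) and the cell-surface *Sdc4* (632 ± 16.4 TPM) were at the level of *Acan* (654, 576 and 597 TPM), with which their values overlapped. *Acan* exceeded *Vcan*, the large proteoglycan of embryonic and fibrous tissue, 7.64 ± 1.10 times. Among matrix glycoproteins, *Spp1* (osteopontin) was at 2727 ± 210 TPM and *Cnmd* (chondromodulin, an inhibitor of vessel growth) at 1084 ± 91.0 TPM. *Efemp2*, an elastic fibre protein gene, was at 967 ± 26.1 TPM. *Ccn2*, a matricellular gene of cartilage, was at 753 ± 25.5 TPM.

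Markers of the middle and deep zones were expressed without exception. All 16 reached 1 TPM in each culture, with a median over members of 272 TPM. *Col11a1*, *Cnmd*, *Ucma* (a cartilage matrix protein, 639 ± 68.1 TPM), *Col9a1* (543 ± 47.2 TPM) and *Epyc* (epiphycan, 374 ± 22.7 TPM) were high, *Scrg1* was at 286 ± 17.4 TPM, and the lowest was *Chad* at 2.31 ± 0.266 TPM. Together they held 1.76 ± 0.127% of TPM. Of the 8 superficial-zone markers, *Clu* (clusterin, 153 ± 12.2 TPM) and *Prg4* were highest, followed by *Abi3bp* (91.3 ± 6.17 TPM) and the joint morphogen *Gdf5* (33.0 ± 1.63 TPM). *Thbs4*, *Erg* and *Cytl1* lay between 4.08 and 10.1 TPM, and *Cilp* (a cartilage intermediate layer protein) was at 0.02, 0 and 0.09 TPM. Superficial markers held 0.0446 ± 0.00109% of TPM, and the ratio of *Prg4* to *Acan* was 0.245 ± 0.0267.

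The 21 markers of hypertrophy and mineralization did not lie at one level. *Spp1* and *Mmp13* (collagenase 3, 2319 ± 130 TPM) made up most of the list's TPM, while both genes are also known from inflammation. *Vegfa*, which draws vessels into hypertrophic cartilage, was at 163 ± 6.74 TPM. *Fgfr3*, the growth factor receptor gene of the growth plate, was at 54.5, 47.7 and 42.5 TPM. *Ibsp*, *Phospho1*, *Alpl* and *Panx3*, which act in mineralizing cells, were at 19.7 to 29.9 TPM, and 89.6% of the *Phospho1* exon bases are shared with *Zfp652* on the same strand. The parathyroid hormone receptor gene *Pth1r* was at 11.7 TPM, the hypertrophy regulator *Runx2* at 10.4 ± 1.15 TPM and the osteoblast factor *Sp7* at 1.23 ± 0.113 TPM. *Ihh*, the signal sent by prehypertrophic cells, was at 0.03, 0.09 and 0.11 TPM. *Mmp13* was thus 138 ± 4.93 times as high as *Col10a1*, and *Sox9* 12.8 ± 1.22 times as high as *Runx2*.

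**Figure D3:**
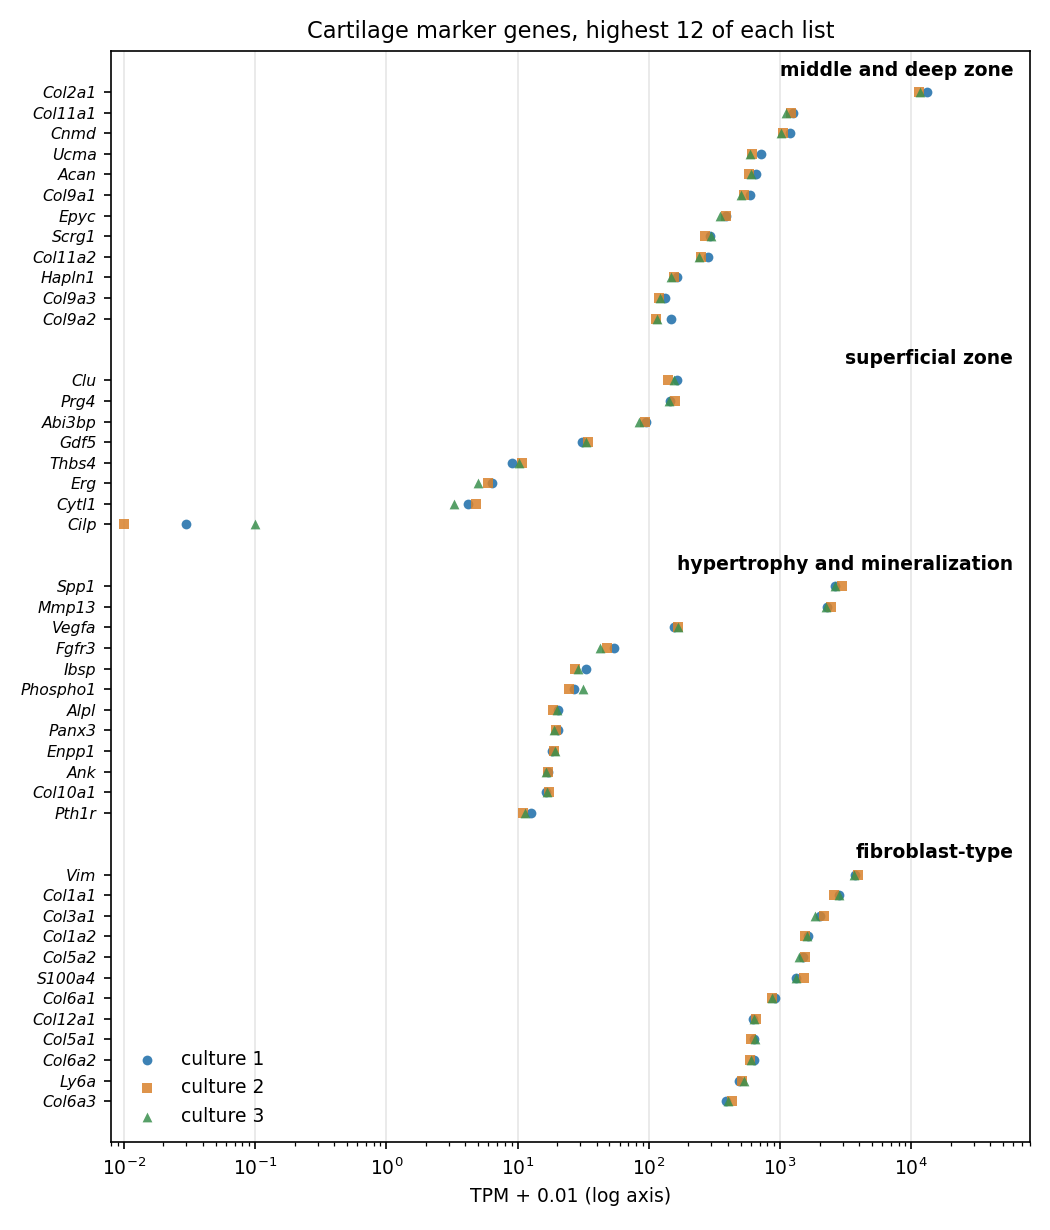
TPM + 0.01 (log axis) of the highest 12 genes of each list of cartilage markers, with 1 symbol per Control culture. Middle and deep zone genes lie mostly above 100 TPM, superficial ones below 200 TPM, and among hypertrophy genes *Spp1* and *Mmp13* lie apart from the rest.

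Genes of the fibroblast or dedifferentiated state were broadly expressed, with 22 of 24 at 1 TPM in every culture. *S100a4*, a calcium-binding protein gene of motile fibroblasts, was at 1394 ± 118 TPM. The contractile genes *Acta2* and *Tagln* were at 254 and 171 TPM. In contrast *Postn* (periostin) was at 2.73 ± 0.258 TPM, and *Pi16*, a marker of fibroblasts in other tissues, was under 0.1 TPM in every culture.

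The inflammation list had 20 genes and held 4.91 ± 0.0458% of TPM, of which *Saa3* made up 64.7%. By estimated counts it held 1.92%. Of its members 17 reached 1 TPM in every culture. The matrix-degrading *Mmp13* was at 2262, 2468 and 2226 TPM and *Mmp3* (stromelysin) at 2176, 2339 and 2113 TPM, and their values overlapped. The chemokine genes *Cxcl5*, *Cxcl1* and *Ccl2*, which attract neutrophils and monocytes, were at 1691 ± 41.6, 902 ± 65.0 and 584 ± 49.8 TPM. The acute-phase genes *Hp* (haptoglobin) and *C3* (complement) were at 341 ± 18.7 and 248 ± 8.46 TPM. All of these genes were expressed at similar levels in each culture.

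The enzymes and cytokines of the same list were lower. *Nos2* (inducible nitric oxide synthase) was at 82.8 ± 5.84 TPM, *Il6* at 71.9, 94.3 and 76.0 TPM, *Ptges* (prostaglandin E synthase) at 57.0 TPM and *Ptgs2* (COX-2) at 20.7 ± 2.75 TPM. *Il1b* and *Tnf*, the cytokines that are used to provoke this state in cultured chondrocytes, had 0 counts in all 3 cultures, which allows up to 0.119 to 0.152 CPM (counts scaled to the library total) per culture. *Il1a* was at 0.13, 0.08 and 0.05 TPM. So acute-phase, chemokine and protease transcripts were abundant in cells in which transcripts of these cytokines were not detectable at this depth. Interferon-stimulated genes stood lower than the acute-phase genes. Only 8 of 21 reached 1 TPM in every culture, among them *Ddx58* (the RNA sensor RIG-I, 19.9 ± 1.81 TPM), *Stat2* (16.2 TPM), *Bst2* (14.6 TPM) and *Ifit2* (6.63 TPM), while *Mx1*, *Oas3* and *Ifnb1* had no counts.

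To show the letters in front of these genes, the 200 bases before the RefSeq start were taken on the GRCm38.p6 build, for the 12 of 17 expressed members of the inflammation list that have a promoter entry in the table used. 5 are printed, 5′ to 3′ on the strand of the gene, for the most abundant transcript of the cultures, both proteases, a chemokine and a complement gene. Capitals mark matches, on either strand, to 4 motifs in which N stands for any base. The TATA box was searched as the letters TATAAA. For C/EBP, a factor of the acute-phase response, the letters were TTGCNNAA. For AP-1, a factor of stress and protease genes, they were TGANTCA. NF-kB, the main factor of inflammatory genes, was searched with a longer motif that begins with GGG and ends with CC.
Saa3 promoter (chr7:46715677-46715876, minus strand): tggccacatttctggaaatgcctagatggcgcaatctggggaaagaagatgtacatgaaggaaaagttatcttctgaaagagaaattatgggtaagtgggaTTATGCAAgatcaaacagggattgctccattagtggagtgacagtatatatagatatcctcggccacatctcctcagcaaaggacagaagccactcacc
Mmp13 promoter (chr9:7272314-7272513, plus strand): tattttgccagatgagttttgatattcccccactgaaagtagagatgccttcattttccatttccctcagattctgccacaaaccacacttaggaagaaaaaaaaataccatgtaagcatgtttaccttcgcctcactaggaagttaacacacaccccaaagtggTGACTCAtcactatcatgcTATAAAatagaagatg
Mmp3 promoter (chr9:7445622-7445821, plus strand): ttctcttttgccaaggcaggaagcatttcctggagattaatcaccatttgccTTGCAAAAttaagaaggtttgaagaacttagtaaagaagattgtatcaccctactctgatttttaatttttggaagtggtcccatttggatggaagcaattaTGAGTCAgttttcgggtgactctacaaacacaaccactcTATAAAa
Cxcl1 promoter (chr5:90891045-90891244, plus strand): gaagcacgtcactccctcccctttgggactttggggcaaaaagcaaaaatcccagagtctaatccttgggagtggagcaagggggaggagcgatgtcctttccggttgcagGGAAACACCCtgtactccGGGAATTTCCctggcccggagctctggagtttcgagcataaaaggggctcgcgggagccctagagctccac
C3 promoter (chr17:57228137-57228336, minus strand): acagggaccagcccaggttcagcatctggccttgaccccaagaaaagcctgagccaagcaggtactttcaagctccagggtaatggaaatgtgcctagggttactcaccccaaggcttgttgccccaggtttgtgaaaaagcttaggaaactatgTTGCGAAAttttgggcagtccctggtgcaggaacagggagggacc
Positions are negative and count bases back from the start, for the first base of a match. *Saa3* had a C/EBP match at -99 and *C3* one at -45. *Cxcl1* had NF-kB matches at -89 and -71. *Mmp13* and *Mmp3* had AP-1 matches at -35 and -46 and TATA box matches at -16 and -7, and *Mmp3* also had a C/EBP match at -148. Of the *Saa3* window 24 bases, and of the *Cxcl1* window 4, fall in an exon of the GENCODE annotation. Every printed window held a match, whereas the windows of *Lcn2*, *Ptges* and *Ptgs1*, which are not printed, held none. Of the *Lcn2* window 147 bases fall in an exon. Among the 12 windows, 4 (33.3%) held the NF-kB letters, 5 (41.7%) those of C/EBP, 2 (16.7%) of AP-1 and 2 (16.7%) of the TATA box. Over all 32851 promoter windows of the table the shares were 3.39%, 7.47%, 5.48% and 9.96%. In the 108 windows of expressed core matrix genes they were 3.70%, 5.56%, 3.70% and 10.2%, and in the 12568 windows of all genes of mean TPM 1 or more 3.95%, 5.74%, 3.61% and 4.66%. A match describes letters and shows no binding of a factor.

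Inhibitors of proteases were abundant too. *Timp1*, *Timp3* and *Timp2*, the tissue inhibitors of metalloproteinases, were at 1519 ± 68.4, 1066 ± 46.7 and 840 ± 20.3 TPM, and *Mmp13* was 1.53 ± 0.0732 times as high as *Timp1*. The lysosomal protease gene *Ctsd* was at 1010 ± 13.8 TPM, and the inhibitor genes *Serpine2* and *Cst3* at 779 and 726 TPM. Of the aggrecan-cleaving enzymes, *Adamts5* was at 75.2, 75.7 and 73.1 TPM and *Adamts4* at 4.16, 3.97 and 3.91 TPM, without overlap. *Ctss*, a cathepsin gene of myeloid cells, was under 0.1 TPM in all cultures.

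Of 72 genes for secreted factors and their inhibitors, 56 reached 1 TPM in every culture. Below *Igf2* came *Spp1*, the cytokine gene *Mif* (1824 ± 231 TPM), *Cxcl5*, *Cxcl1*, *Ccn2*, *Ccl2*, the IGF-binding protein gene *Igfbp4* (492 ± 33.9 TPM) and the chemokine gene *Ccl7* (474 ± 33.7 TPM), in this order. Postnatal *Igf1* was at 7.75, 11.2 and 6.42 TPM and its receptor gene *Igf1r* at 29.4 ± 0.737 TPM. *Pthlh*, which keeps growth plate cells from maturing, was at 0.14, 0.19 and 0 TPM. *Areg*, *Dkk1*, *Pdgfb* and *Sost* had no counts.

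Among matrix receptors *Sdc4* was followed by the integrin chain genes *Itgb1* (475 ± 14 TPM) and *Itgb5* (163 ± 6.37 TPM), the collagen receptor kinase genes *Ddr1* (122 ± 7.25 TPM) and *Ddr2* (100.1 ± 1.88 TPM), the hyaluronan receptor gene *Cd44* (103 ± 5.06 TPM) and *Itga5*, the fibronectin receptor chain (98.2 ± 1.86 TPM). Of the collagen-binding integrin chains *Itga1* was at 23.4, *Itga11* at 11.7, *Itga10* at 10.4 and *Itga2* at 1.58 TPM. *Oscar* itself, the receptor that the study manipulates, was at 0.19, 0.33 and 0.22 TPM, from 4, 3 and 4 counts. These counts are at the floor of 3 counts or just above it, so that its level in Ad-Control cells was barely measurable at this depth.

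Of 63 growth factor receptor genes 54 reached 1 TPM in every culture. *Fgfr1* (174 ± 3.18 TPM) and *Fgfr2* (164 ± 6.79 TPM) led, and both exceeded *Fgfr3* without overlap. *Tgfbr2*, the type II TGF-β receptor gene, was at 156 ± 4.69 TPM, the kinase genes *Axl* and *Ryk* at 154 and 145 TPM, and *Npr2*, the natriuretic peptide receptor gene needed for endochondral growth, at 114 ± 1.80 TPM. Among cytokine and innate receptors the decoy receptor gene *Tnfrsf11b* (osteoprotegerin) had the highest mean, at 302 ± 6.83 TPM, with values that overlapped those of *Il6st*. *Tnfsf11*, which encodes RANKL, the ligand of osteoprotegerin, was at 12.9 ± 1.67 TPM. *Il6st* (the shared IL-6 family chain), *Tnfrsf1a* (the TNF receptor) and *Il1rl1* (the IL-33 receptor) were at 293 ± 7.31, 153 ± 7.44 and 137 ± 22.5 TPM. The IL-1 receptor gene *Il1r1* was at 69.1 ± 2.16 TPM, and *Tlr4* and *Tlr2* were at 23.8 ± 2.79 and 21.8 ± 2.30 TPM. Thus the receptors for TNF and IL-1 were expressed, though *Tnf* and *Il1b* were not detected.

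Among G protein-coupled receptors and channels, *Adgrg2* (105 ± 5.49 TPM) was highest. The mechanosensitive channel genes *Piezo1* (102 ± 8.77 TPM, overlapping *Ctu2*) and *Trpv4* (58.3 ± 3.12 TPM) were expressed in every culture, and *Piezo2* was lower at 15.9 ± 1.76 TPM. *Adgrg6* and *P2rx4*, an ATP-gated channel gene, were at 64.0 and 62.6 TPM. *Adrb1*, *Gpr65* and *Ptger3* were under 0.1 TPM in all cultures.

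The 190 transcription factor and cofactor genes examined held 0.90 ± 0.0183% of TPM, and 169 of them reached 1 TPM in every culture. The highest were *Ybx1* (583 ± 17.8 TPM), *Ctnnb1* (β-catenin, 566 ± 6.69 TPM), the stress factor *Atf4* (402 ± 9.38 TPM), the hypoxia factor *Hif1a* (361 ± 14.9 TPM), *Nfe2l1* (327 ± 0.848 TPM), *Id3* (284 ± 6.39 TPM), *Atf5* (233 ± 10.3 TPM) and the limb factor *Tbx15* (194 ± 6.69 TPM). *Sox9* ranked below these. Its partners in the control of cartilage genes were lower, with *Sox6* at 44.7, 35.2 and 37.6 TPM and *Sox5* at 15, 22.5 and 18.5 TPM. *Pparg*, which the study follows as a target of 5-ASA, was at 4.53 ± 0.380 TPM. *Mycn* and *Gata4* were under 0.1 TPM.

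Other cell types were looked for with 13 lists of markers. Those of macrophages, lymphocytes and erythroid cells summed to 0.00231 ± 0.000234% of TPM, or 20.8 to 25.5 TPM per culture. Of these 32 genes 3 reached 1 TPM in every culture, namely *Cd14* (13.0 ± 0.922 TPM), *Lyz2* (5.20 ± 0.665 TPM) and *Cd68* (3.46 ± 1.02 TPM), while 19 had no counts. The defining macrophage genes were near 0, with *Ptprc* (CD45) at 0.02, 0 and 0.02 TPM and *Adgre1*, *Tyrobp*, *C1qa*, *C1qb*, *C1qc* and *Cx3cr1* without counts. Hemoglobin genes and *Cd3e* and *Ms4a1* had no counts.

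The endothelial list summed to 8.25 to 14 TPM, nearly all of it *Egfl7*, with *Pecam1* at 0.10 TPM and *Kdr*, *Cdh5* and *Emcn* at or under 0.00667 TPM. Muscle markers summed to 7.84 to 9.65 TPM, led by *Tnnt3* at 3.74 TPM, and *Myod1* and *Myog* had no counts. *Fabp4* was at 26.7 ± 4.13 TPM, but the adipocyte genes *Adipoq* and *Plin1* were at 0.19 and 0.20 TPM. Of osteoclast genes *Acp5* (17.7 ± 0.425 TPM), *Nfatc1* (13.1 ± 0.855 TPM) and *Ctsk* (6.64 ± 0.416 TPM) were detected, whereas *Calcr* and *Ocstamp* were under 0.1 TPM in all cultures and *Dcstamp* had no counts. In the osteoblast list *Ibsp* was followed by *Sp7* at 1.23 ± 0.113 TPM and *Bglap* (osteocalcin) at 1.06 ± 0.308 TPM, and *Dmp1* was at 0.157 TPM.

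Lists of other connective tissue were not near 0. The tendon list was led by *Fmod* (1091 ± 47.3 TPM), given above among the proteoglycans, which made up 95.9% of its TPM. The tendon factor *Scx* was at 31.1 ± 4.95 TPM, *Thbs4* at 10.1 ± 0.871 TPM and *Mkx* at 5.07 ± 0.915 TPM. The tendon membrane gene *Tnmd* was at 0.60 ± 0.204 TPM. The pericyte genes *Cspg4* and *Pdgfrb* were at 95.0 ± 5.92 and 44.0 ± 1.43 TPM. *Mcam*, *Rgs5* and *Notch3* were at 4.47, 1.99 and 1.31 TPM, while *Abcc9* and *Kcnj8* were at 0.0767 and 0.0600 TPM. In the epithelial list *Krt19* alone exceeded 1 TPM, at 29.6 ± 1.88 TPM, beside *Epcam* at 0.163 TPM. In the Schwann cell and neuron list *Ncam1* was at 38.2 ± 0.862 TPM and *Sox10* had no counts. *Camp*, the leading gene of the neutrophil list, was at 9.0 ± 0.0702 TPM, and *S100a9* had no counts. Whether single genes such as *Scx*, *Cspg4* or *Krt19* came from chondrocytes or from a few other cells was not tested.

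**Figure D4:**
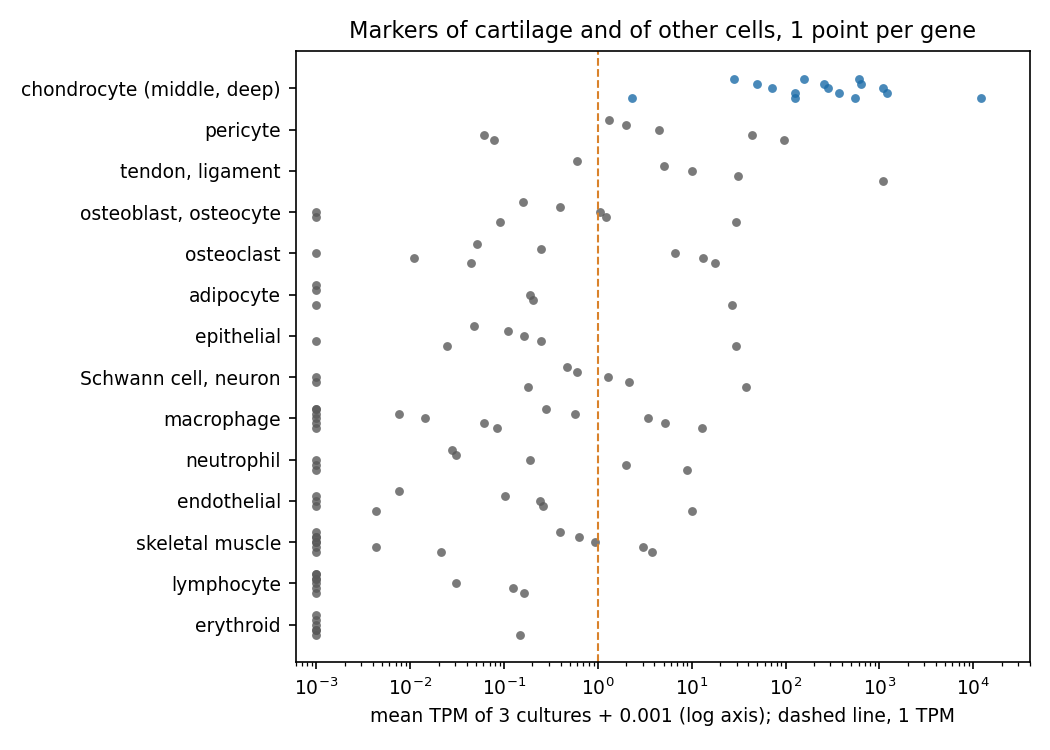
Mean TPM + 0.001 (log axis) of every gene in the list of middle and deep zone cartilage (blue) and in the lists of other cells (grey), with a dashed line at 1 TPM and genes without counts at the left edge. The 16 middle and deep zone genes all lie right of the line, whereas no lymphocyte or erythroid marker does.

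Genes of proliferation were expressed. All 21 cell cycle genes reached 1 TPM in every culture, with *Cdk1* at 123 ± 5.89 TPM, *Top2a* at 73.9 ± 3.69 TPM and *Mki67* at 21.8 ± 1.14 TPM. The inhibitor genes *Cdkn1a* (p21, 202 ± 2.79 TPM) and *Cdkn2b* (109 ± 4.52 TPM) were expressed beside the cyclin genes *Ccnd2* (183 ± 13.8 TPM) and *Ccnd3* (149 ± 14.1 TPM). Transcripts of both sexes were present in every culture, as *Xist* was at 92.4, 105 and 82.2 TPM and the Y-linked *Ddx3y* at 9.37, 8.58 and 7.73 TPM.

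The spread between cultures depended on the level. The median CV was 13.5% among the 4879 genes of 1 to 10 TPM, where counting error alone gives 10.3%. It was 5.78% against 3.54% at 10 to 100 TPM (7245 genes), 3.92% against 1.64% at 100 to 1000 TPM (1289 genes) and 3.35% against 0.746% from 1000 TPM (152 genes). At high levels the spread thus exceeded counting error several times over. The median SD of log2(TPM + 1) was 0.09 over all genes of mean TPM 1 or more.

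**Figure D5:**
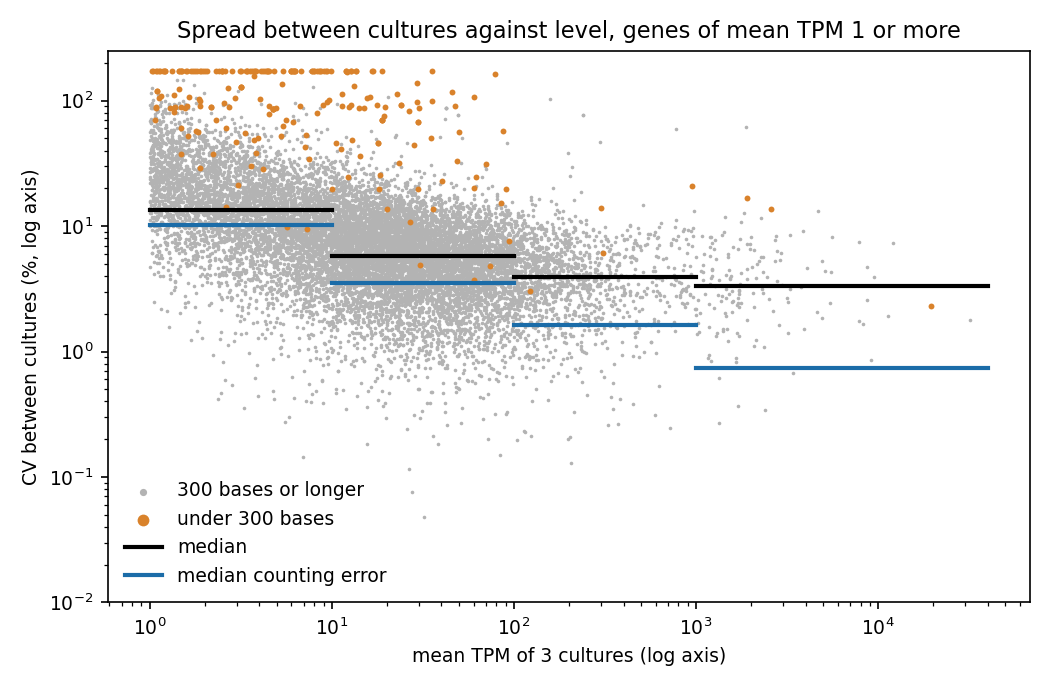
CV between the 3 Control cultures (%, log axis) against mean TPM (log axis) for the 13565 genes of mean TPM 1 or more, with genes under 300 bases in orange, the median of each level in black and the counting error in blue. The black lines fall from 13.5% to 3.35%, and of the 411 genes above a CV of 50% 174 are short.

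The 10 genes with the largest SD among those of mean TPM 10 or more were short or duplicated. *Gm27927*, *Gm25099*, *Gm44364*, *Gm22513*, *Snora31* and *Gm24201* are 116 to 164 bases long and had 0 to 12 counts in a culture. The 4 pseudogenes *Rpl35a-ps2*, *Rpl35a-ps3*, *Rpl35a-ps4* and *Rpl35a-ps6* of a ribosomal protein gene had identical values, at 0, 61.2 and 65.8 TPM. Among the 100 genes of largest SD, 53 were shorter than 300 bases, compared with 77 of all 8686 genes at that level, and 30 were pseudogenes.

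Where the choice was limited to the 8244 protein-coding genes that had 100 counts or more per culture, a group chosen after the values were seen, *Lrch1* varied most. It was at 8.38, 45.2 and 7.25 TPM although its counts were alike, at 402, 421 and 301, and the mean transcript length that the estimate assigned to it was 3904, 765 and 3787 bases. *Lars2*, a mitochondrial tRNA synthetase gene, was at 43.2, 107 and 123 TPM and 1962, 5554 and 5073 counts. The ribosomal RNA gene *CT010467.1* on chromosome 17 was likewise lowest in culture 1, at 628, 2090 and 2903 TPM, and a relation of both was not tested. *Zc3h11a*, which stood between *Lrch1* and *Lars2* in this order, was at 9.24, 30.66 and 26.85 TPM. After *Lars2* and *Hmga1b* came *mt-Atp6* and, with other genes between, *mt-Co2*. Reads of *mt-Atp6* and *mt-Co2* are shared with the pseudogenes on chromosome 1.

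The middle and deep zone genes were mostly highest in the same culture. Of the 16 middle and deep zone genes, 14 had their highest TPM in culture 1, compared with 29.4% of all 13565 genes. Their summed share was 1.91%, 1.69% and 1.68% in the 3 cultures. *Comp* was at 935, 785 and 829 TPM and *Matn1*, a cartilage matrilin gene, at 83.7, 68.2 and 65.2 TPM. *Sox9* and *Sox6* were also highest in culture 1, and *Sox5* was lowest there. Of the superficial-zone genes 3, 4 and 0 of 7 expressed members were highest in cultures 1, 2 and 3, and of the hypertrophy genes 9, 4 and 3 of 16. Wider matrix lists, which share members with the middle and deep zone list, leaned to culture 1 too. There 57 of 126 expressed core matrix genes and 17 of 31 collagen genes were highest. In contrast, the fibroblast-type genes were spread evenly, with 6, 9 and 8 of 23 expressed members highest in cultures 1, 2 and 3. The inflammation genes were most often highest in culture 2 (10 of 17, compared with 37.4% of all genes), and the transcription factors in culture 3 (88 of 172, compared with 33.1%). These genes share their libraries, so each count describes 3 cultures and is no test.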

How the data were processed

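The authors sequenced stranded, paired-end mRNA libraries. Per the study's methods and the submitters' processing notes, reads were trimmed with BBDuk, aligned with STAR 2.7.1a to GRCm38 and quantified with RSEM 1.3.1. The strand setting of the counting was not given in the sources used here, so overlapping genes are uncertain. The authors' deposited files hold, for 55471 genes, estimated counts, which need not be whole (8.97 to 9.68% of genes were not), and TPM, which the authors scaled to transcript length and library. Only the 3 Control cultures were used, without a comparison of groups. Symbols, coordinates and biotypes are from GENCODE M21 (55230 genes found by identifier without version).

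Gene shares, ranks, SDs and CVs were computed in Python 3.11.15 with pandas 2.3.3 and numpy 2.4.6, and plotted with matplotlib 3.10.9. The biological coefficient of variation was estimated from rounded counts in R 4.3.3 with edgeR 4.0.16 (TMM, filterByExpr, intercept only, 13854 genes). Counting CV is that expected from the counts alone, and the log scale had a pseudocount of 1 TPM. A pseudogene copy shares at least 50% of its 31-base words with mitochondrial transcripts. Intervals and floors (3 counts) cover counting error only.

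The genes named are 7 cartilage markers, the 30 of highest mean TPM, up to 8 of the highest and any members under 0.1 TPM of each of 33 gene lists (837 symbols, all found), and the 10 of largest SD at a mean of 10 TPM or more. Any other gene named, for a ratio, a receptor or a marker, was picked with its values known. The cartilage genes and lists were chosen with earlier results of these data known. Exon overlaps of 10% or more were looked for. Besides the overlaps given with their genes, *Igf2*, *Mest*, *Epyc*, *Gdf5*, *Ctnnb1*, *Tagln*, *Timp3*, *Pkm*, *Spp1*, *Ftl1*, *Ppib*, *Ccn2*, *Fgfr3*, *Itga10*, *Csf1r* and *Alas2* share exon bases with another gene, whose mean TPM was lower except for *Csf1r* and *Alas2*. Promoters are from RefSeq on GRCm38.p6. Other scalings, filters and pseudocounts were tried, and each culture was left out in turn.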

Additional observations from a re-analysis of the deposited data

How the results depend on the processing

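With TPM rescaled over protein-coding genes outside the mitochondrial genome, the 10 highest genes held 11.4%, core matrix 7.65%, collagens 2.96%, ribosomal proteins 13.5%, blood and immune markers 0.00264% and the inflammation list 5.65%. By estimated counts, which are not divided by length, these shares were 12.9%, 15.6%, 7.25%, 3.44%, 0.00183% and 1.92%, the mitochondrial share was 1.87%, and the ratio of *Col1a1* to *Col2a1* was 0.272. Without genes under 300 bases, the 10 highest genes held 11.9%, core matrix 6.84%, ribosomal proteins 12%, the inflammation list 5.06% and the mitochondrial genome 3.07%, or 8.74% when the chromosome 1 pseudogenes were added to all its genes. The median SD of log2 TPM was 0.10 with a pseudocount of 0.1, 0.0756 from a mean of 10 TPM and 0.0785 over protein-coding genes with 100 counts.

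Leaving out each culture in turn gave a median SD of 0.0710 to 0.0841 and a biological coefficient of variation of 4.45% to 5.42%. With a culture left out 29 values were called unchanged, including some of the coefficients just given, and 8 were under other settings. For shares and the ratio of *Col1a1* to *Col2a1* this meant a move below the SD between cultures. For counts of genes it meant a move of less than 1.5 times. Leaving out a single culture can never move a mean by as much as that SD, so shares and ratio could not fail. This check therefore decides nothing for them. With a culture left out, core matrix held 6.55 to 6.70% and the ratio was 0.218 to 0.233. The inflammation list, the added pseudogenes and the filter on 100 counts were chosen after seeing the data. Depth limits genes of a few counts, such as *Oscar*. No paired analysis was possible because a single group was described and no test was made.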
